A study of Mus musculus with 6 samples.

Results

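The 10 genes described here belong to the Nodal and BMP signalling pathways, and they were followed for binding of ESRRB, an orphan nuclear receptor of the naive pluripotency network, in E14 mouse embryonic stem cells. The genes were the ligands Nodal and Bmp4, the secreted antagonists Lefty1, Lefty2 and Cer1, the BMP targets Id1, Id2 and Id3, and the intracellular inhibitors Smad7 and Skil. A region, a unique interval of a peak list, was counted for a gene when a summit lay within 100 kb of the gene's span on the mm10 genome. By this rule 38 of the 13767 regions of 2iL belonged to the genes, as did 26 of 10970 at 48 h and 15 of 7018 at 96 h. Merging regions that overlap across libraries left 44 of 18634. The labels name no genetic change in these cells. They were grown without serum in N2B27 medium with 2iL, which is 3 µM CHIR99021 (a GSK3 inhibitor), 1 µM PD0325901 (a MEK inhibitor) and the cytokine LIF. Cells were sampled in 2iL, or 48 h and 96 h after 2iL had been replaced by N2B27 alone. Each condition had 1 library made with a mouse monoclonal antibody to ESRRB, so no test between conditions was possible, and fewer cells bound and less ESRRB bound per cell cannot be told apart. The lists hold no expression values, so the state of the cells was not checked against marker genes.

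Nodal signals through activin receptors and SMAD2 and SMAD3, and induces its own antagonists, Lefty1, Lefty2 and Cer1. BMP4 signals through SMAD1, SMAD5 and SMAD9, and switches on the Id genes, whose products block the DNA binding of basic helix-loop-helix factors and, in mouse embryonic stem cells, help LIF to hold back differentiation. SMAD7 blocks the receptors, and SKIL (SnoN) binds SMADs in the nucleus and represses their targets. Both pathways act in the early embryo when the epiblast leaves the naive state and the germ layers are set up.

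The promoters of 3 genes are shown because ESRRB regions reached or came closest to them. They are those of Nodal and Id2, whose windows lay nearest a region among the members with a matched window. The other is that of Tdgf1, the gene of the Nodal co-receptor Cripto. The Tdgf1 window was overlapped in all 3 libraries and was chosen after its values were seen. In 2iL and at 96 h the overlap took in only bases before the gene's start. Each runs 5′ to 3′ from 250 bases before to 50 bases after the gene's start, from RefSeq (GRCm38.p6). Capitals mark a match to a searched motif.
Nodal promoter, chr10:61417722-61418021, plus strand: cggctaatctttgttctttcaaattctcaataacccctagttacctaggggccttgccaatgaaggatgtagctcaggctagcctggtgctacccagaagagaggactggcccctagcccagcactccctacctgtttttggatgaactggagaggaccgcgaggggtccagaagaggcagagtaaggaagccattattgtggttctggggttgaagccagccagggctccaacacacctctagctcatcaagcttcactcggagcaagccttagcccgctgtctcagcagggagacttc
Id2 promoter, chr12:25096043-25096342, minus strand: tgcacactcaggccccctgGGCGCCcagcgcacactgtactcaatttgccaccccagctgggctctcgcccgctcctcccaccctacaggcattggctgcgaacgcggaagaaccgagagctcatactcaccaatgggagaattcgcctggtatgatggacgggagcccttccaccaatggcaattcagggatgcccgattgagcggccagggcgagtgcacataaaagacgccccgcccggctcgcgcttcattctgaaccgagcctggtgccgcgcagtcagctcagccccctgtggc
Tdgf1 promoter, chr9:110946109-110946408, minus strand: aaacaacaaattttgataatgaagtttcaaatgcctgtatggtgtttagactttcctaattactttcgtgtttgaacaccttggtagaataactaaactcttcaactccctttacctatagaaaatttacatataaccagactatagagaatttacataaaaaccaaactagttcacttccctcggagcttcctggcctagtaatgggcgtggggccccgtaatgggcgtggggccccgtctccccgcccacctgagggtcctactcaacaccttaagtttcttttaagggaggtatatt
The motifs, searched on both strands, were the ESRRB site TCAAGGTCA, its core AAGGTCA (contained in the site), the SMAD palindrome GTCTAGAC, the BMP SMAD element GGCGCC and the FOXH1 motif AATNCACA. Of 32851 promoters of this length, 0.423%, 4.72%, 0.213%, 11.9% and 3.60% held each of them. Id2 held 1 match, to GGCGCC at bases 20 to 25 of the window, and the Nodal and Tdgf1 windows held no match.

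Among the members whose promoter windows could be checked, the distance to the nearest region differed widely. Promoter windows were matched for 5 of the 10 members (Nodal, Bmp4, Cer1, Id2 and Id3), and a region overlapped 0 of the 5 in each library. Of all promoters, 5.19% were overlapped in 2iL, then 3.61% at 48 h and 2.72% at 96 h. With shares this low, 0 of 5 is no result about the members. Smad7 was not among those checked, and a region lay over one end of its span in 2iL and at 96 h. The nearest region came within 197 bp of the Nodal window in 2iL and within 904 bp at 48 h, and within 172 bp and 70 bp of the Id2 window. At 96 h the gaps were 11053 bp for Nodal and 34977 bp for Id2. Across the 3 libraries the gaps were 2529, 2485 and 33349 bp for Id3, 7983, 20543 and 499061 bp for Bmp4, and 342321, 25241 and 342078 bp for Cer1. The Tdgf1 window was overlapped by a region in 2iL (fold enrichment over the library's local background 5.98, 95% counting interval 4.80 to 7.37), at 48 h (5.65, 4.75 to 6.67) and at 96 h (4.27, 3.25 to 5.51). The summits of those regions lay 2003, 1310 and 1315 bases before the start.

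The libraries differed in read numbers at summits and in background, and total read numbers are not in the lists. The lowest background read number, which depends on depth and fragment length, was 5.04 for 2iL, 8.09 for 48 h and 5.84 for 96 h. The median number of reads at the highest summit of a region was 51, 68 and 45. The median fold of all regions was 5.88, 4.98 and 4.82. Each fold is relative to the background of the library it comes from. The 95% counting intervals cover the reads at the summit only, with the background held fixed. A region that was not called may have held ESRRB below the calling threshold. In each list 95% of regions had a fold above 3.47 in 2iL, 2.91 at 48 h and 2.81 at 96 h.

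Most of the genes had ESRRB regions nearby in 2iL, all had them at 48 h, and fewer had them at 96 h. Of the 10 genes, 9 had at least 1 region in the 100 kb window in 2iL, all 10 had one at 48 h, and 6 had one at 96 h. The background shares of all 21887 protein-coding genes were 69.8%, 64.7% and 54.0%. The median number of regions per gene was 3.50, 2.00 and 1.50 for the 10 genes in the 3 libraries and 1 in each library for all protein-coding genes. Of the 9 genes with a 2iL region, 6 had fewer regions at 48 h (55.8% of all protein-coding genes with a 2iL region did) and 8 had fewer at 96 h (74.4%). None of the 9 lacked a region at 48 h (15.2% of all such genes), and 3 lacked one at 96 h (27.7%): Lefty1, Lefty2 and Bmp4. Lefty1 and Lefty2 are neighbours, 35.9 kb apart, and shared 3 regions of 2iL, so they do not count as separate cases.

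**Figure D1:**
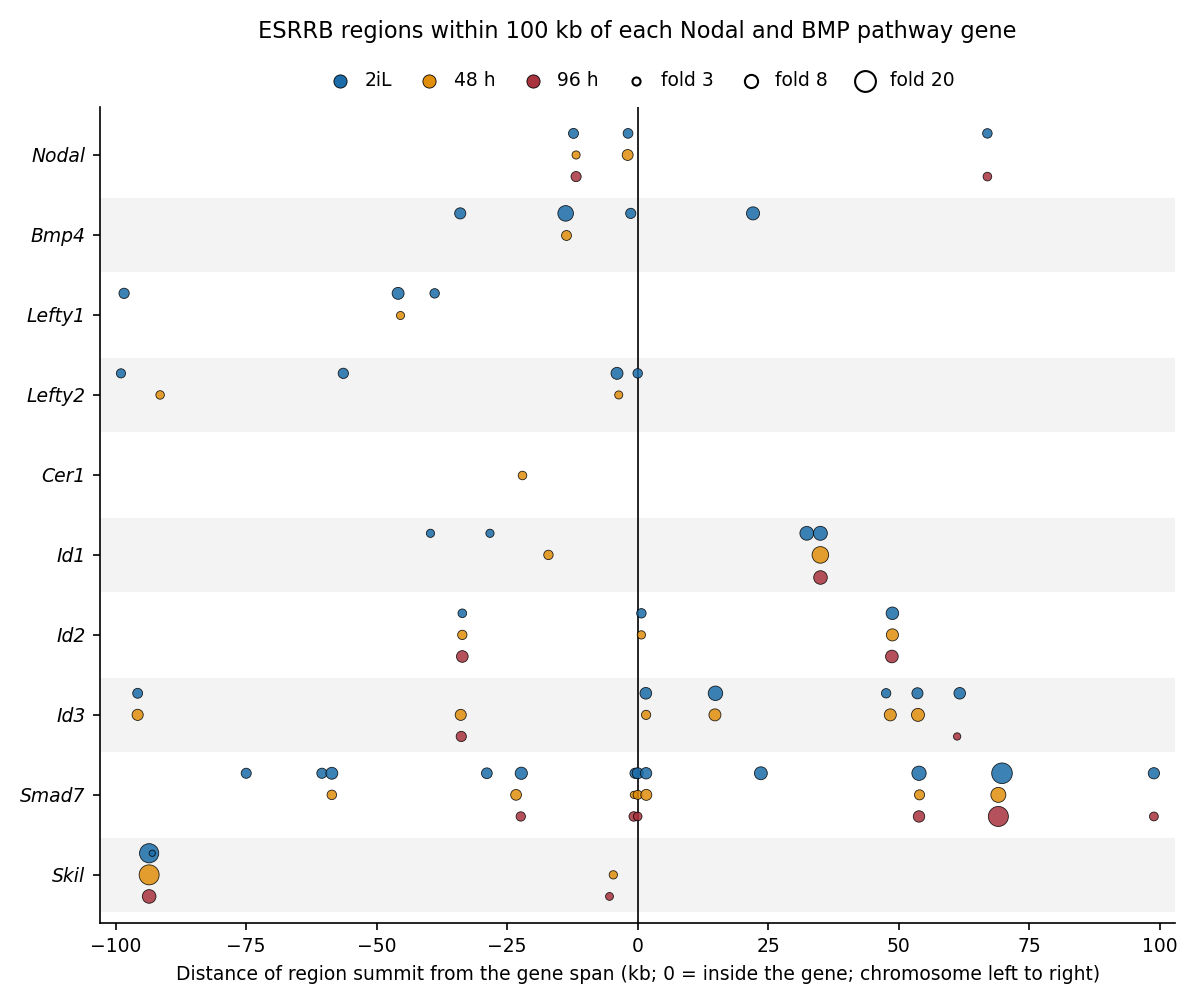
Position of each ESRRB region within 100 kb of the 10 genes, as the distance of its highest summit from the gene span (kb, chromosome left to right), for the 3 libraries (2iL, 48 h, 96 h), with point area proportional to fold enrichment. No point of 96 h lies around Bmp4, Lefty1, Lefty2 or Cer1. The strongest regions of 2iL, near Smad7 and Skil, appear in each library at 69.1 to 69.8 kb and 93.6 kb from the genes.

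**Figure D2:**
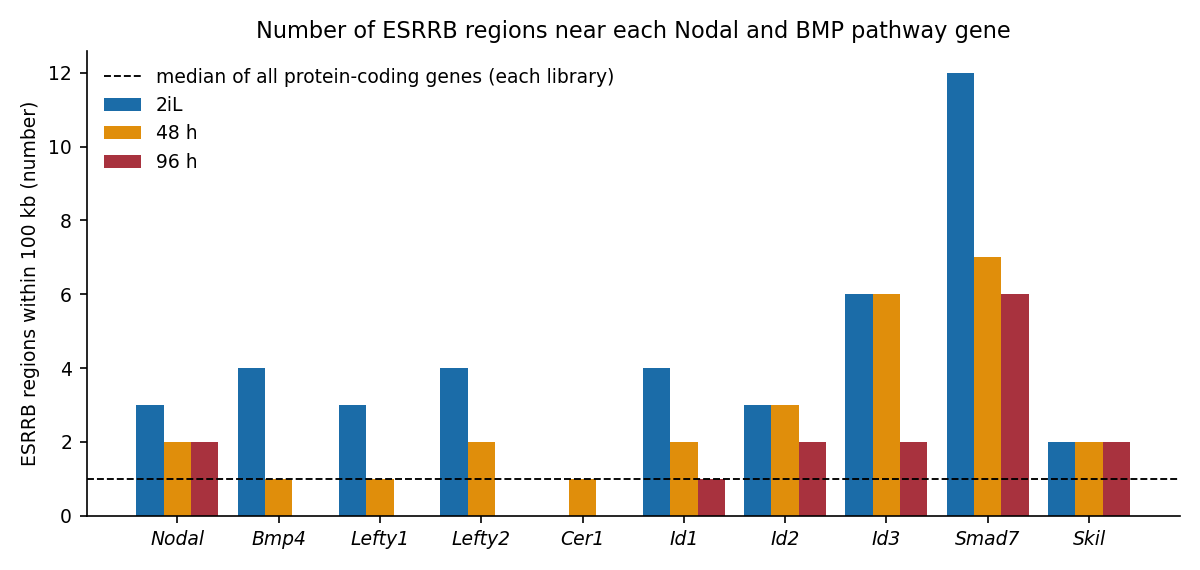
Number of ESRRB regions within 100 kb of each gene (bars, 1 library per condition), with the median of all protein-coding genes, 1 in each library, as a dashed line. Smad7 had 12, 7 and 6 regions, and Cer1 had 1 region, at 48 h.

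As a set, the regions near these genes were called later about as often as other 2iL regions. Of the 38 regions of 2iL, 20 (52.6%, exact 95% interval 35.8 to 69.0) were called at 48 h, beside 50.7% of all 2iL regions. At 96 h 12 were called (31.6%, 17.5 to 48.7), beside 35.0%. With all 2iL regions weighted to the same 5 classes of fold, their shares were 48.2% and 32.9%. From the weakest to the strongest class, 4 of 10, 3 of 8, 4 of 8, 3 of 5 and 6 of 7 regions near the genes were called at 48 h, beside 30.4%, 37.3%, 48.8%, 59.6% and 77.5% of all. At 96 h the counts were 2 of 10, 2 of 8, 2 of 8, 2 of 5 and 4 of 7, beside 17.6%, 23.4%, 30.6%, 41.3% and 62.2%. Both later times held 9 of the 38 (23.7%, against 31.3% of all 2iL regions), and 15 were called at neither (39.5%, against 45.6%). Another 11 were called at 48 h and not at 96 h (28.9%, 15.4 to 45.9), against 19.4% of all. Of these 11, 5 belonged to Id3, and without the Id3 regions the count was 6 of 32 (18.8%). Regions not called in 2iL made up 6 of the 26 at 48 h (23.1%, against 36.5% of all 48 h regions) and 3 of the 15 at 96 h (against 30.5%). Of the 26 regions of 48 h, 12 (46.2%) were also called at 96 h, against 49.3% of all. The 9 regions called at both 48 h and 96 h had a median 2iL fold of 7.27, against 7.60 for all such regions. The 15 called at neither had a median of 4.80, against 5.19.

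**Figure D3:**
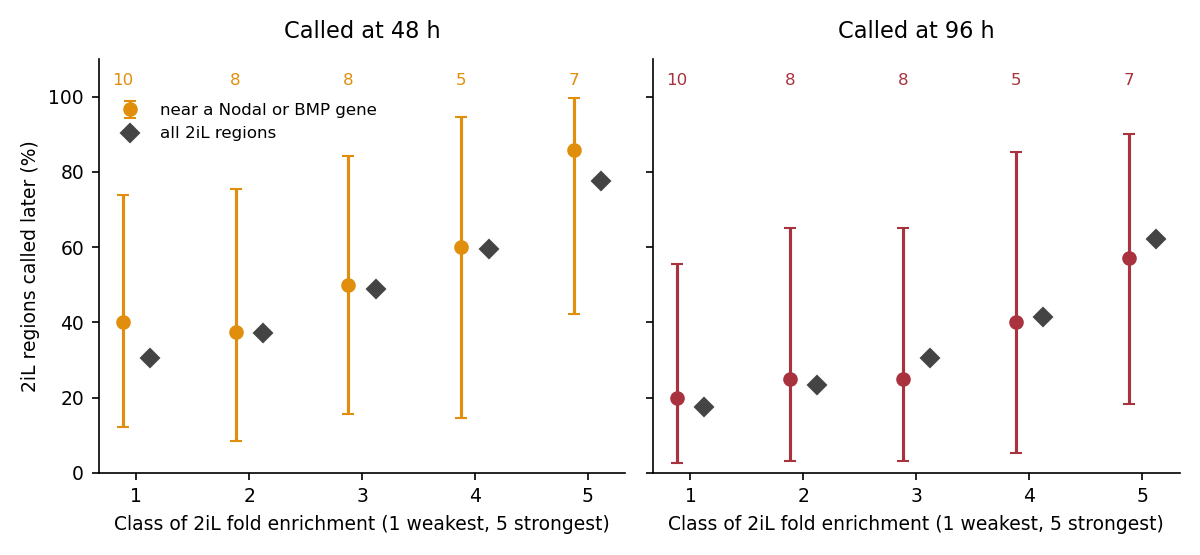
Share of 2iL regions called at 48 h and at 96 h by class of 2iL fold enrichment (5 classes of equal size over all 2iL regions), for regions near the 10 genes (circles, exact 95% intervals, numbers of regions above) and for all 2iL regions (diamonds). The diamond lies inside the interval of the circle in each class. In the strongest class 6 of 7 regions near the genes were called at 48 h, and 4 of 7 at 96 h, beside 77.5% and 62.2% of all.

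Of the few regions close to the genes, most were called at 48 h and few at 96 h, with intervals that include the background shares. Within 20 kb of a gene lay 12 of the 38 regions of 2iL, with folds of 4.11 to 11.2 (median 5.19). At 48 h 9 of the 12 were called (75.0%, 95% interval 42.8 to 94.5), beside 51.4% of the 2iL regions within 20 kb of any protein-coding gene. At 96 h 2 were called (16.7%, 2.09 to 48.4), beside 35.6%, and 7 of the 12 were called at 48 h and not at 96 h (58.3%, 27.7 to 84.8), beside 19.5%. Neither later time held 3 of the 12, beside 44.9%. The 7 regions lay near Nodal, Lefty2, Bmp4, Id2, Smad7 and Id3, with 2 near Id3, and without Id3 they were 5 of 10. With all 2iL regions weighted to the same classes of fold, 47.0% were called at 48 h and 31.7% at 96 h. On that weighting 19.2% were called at 48 h without 96 h and 49.1% at neither time. Among the 26 regions farther than 20 kb, 11 (42.3%) were called at 48 h, 10 (38.5%) at 96 h, 4 (15.4%) at 48 h and not at 96 h, and 12 (46.2%) at neither. Of these 26, 20 lay within 20 kb of another protein-coding gene. The shares of all 2iL regions were 50.7%, 35.0%, 19.4% and 45.6%. The split at 48 h without 96 h was looked at after the values under the 20 kb limit were seen, and the 96 h library, with fewer reads at summits and a lower background than the 48 h one, moves with it. The part of read numbers in the result was not tested.

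Nodal, which encodes the ligand that patterns the epiblast, had 2 regions on the upstream side of its start, of which the farther one was called in all 3 libraries. The gene lies on chromosome 10 (61417972 to 61425338, plus strand). The nearer region (chromosome 10, 61415449 to 61417525), with its highest summit 1848 bases before the start, had a fold of 4.38 in 2iL (3.48 to 5.45, 79 reads). At 48 h its fold was 5.50 (4.58 to 6.56, 122 reads), and it was not called at 96 h. The farther region (61405327 to 61406660 in 2iL), 12.3 kb before the start, had folds of 4.60 (3.26 to 6.32), 3.05 (2.44 to 3.78) and 4.76 (3.42 to 6.46) in the 3 libraries. Enhancers active in pluripotent cells are known upstream of Nodal, but no enhancer annotation was used here. The remaining region (61491748 to 61492684) lay inside the neighbouring gene Lrrc20, 67.0 kb past the end of Nodal, with a fold of 4.17 in 2iL and 3.46 at 96 h, and was not called at 48 h. All 3 were weak for 2iL: the strongest of them ranked at the 76.5% point of the list, counted from the highest fold.

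Bmp4, which encodes a BMP ligand that embryonic stem cells make themselves, had 4, 1 and 0 regions over the time course, and Bmp4 was the nearest protein-coding gene of all 4. It lies on chromosome 14 (46383525 to 46390669, minus strand). The strongest (chromosome 14, 46369139 to 46370218), 13.8 kb past the end of the gene, had a fold of 11.2 in 2iL (8.75 to 14.2, 67 reads), among the highest 9.42% of the list. At 48 h it had a fold of 4.51 (3.25 to 6.10, 40 reads), and it was not called at 96 h. In the strongest 20% of 2iL regions, to which it belonged, 62.2% were called at 96 h. The second (46412066 to 46413436), 22.1 kb before the start, had a fold of 7.90 in 2iL (6.23 to 9.87) and was called at neither later time. The other 2, at 1.33 kb and 34.0 kb past the end, had folds of 4.80 and 5.73 and were also called in 2iL only. The nearest 96 h region lay 500 kb from Bmp4.

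Lefty2 and Lefty1, which encode secreted inhibitors of Nodal that lie side by side on chromosome 1, had no region within 100 kb at 96 h. Their spans are 180893108 to 180899107 (Lefty2) and 180935022 to 180938401 (Lefty1). A broad region with 5 summits (180887629 to 180890845), 3.96 kb from Lefty2 and 45.9 kb from Lefty1, had a fold of 6.61 in 2iL (5.31 to 8.13, 87 reads) and 3.01 at 48 h (2.29 to 3.89, 57 reads). The 2 intervals do not overlap, and they refer to different backgrounds, of 12.3 reads in 2iL and 18.3 at 48 h. A region inside Lefty2 (180895662 to 180896534, fold 4.13) and one 56.4 kb from it (180836434 to 180836941, fold 4.89) were called in 2iL only. Near the 100 kb limit, a region 99.0 kb from Lefty2 (fold 3.89) was called in 2iL alone and one 91.5 kb away (fold 3.34) at 48 h alone, both nearest the histone gene H3f3a. At 96 h the nearest region lay 234 kb from Lefty1 and 274 kb from Lefty2.

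Cer1, which encodes Cerberus, a secreted inhibitor of Nodal and BMP, was the only one of the 10 genes with no 2iL region within 100 kb. Its single region, at 48 h (chromosome 4, 82858985 to 82859861), had a fold of 3.38 (2.61 to 4.32, 63 reads). That region lay 22.2 kb past the end of Cer1 (82881751 to 82885151, minus strand) and inside Zdhhc21. The nearest regions in 2iL and at 96 h were 339 kb away. All 4 regions of 2iL near the 3 antagonist genes thus lay within 100 kb of Lefty1 or Lefty2. Those at 99.0 kb and 56.4 kb from Lefty2 were nearest other genes, H3f3a and Sde2. At 48 h 1 of the 4 was called and at 96 h 0, beside 50.7% and 35.0% of all 2iL regions.

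**Figure D4:**
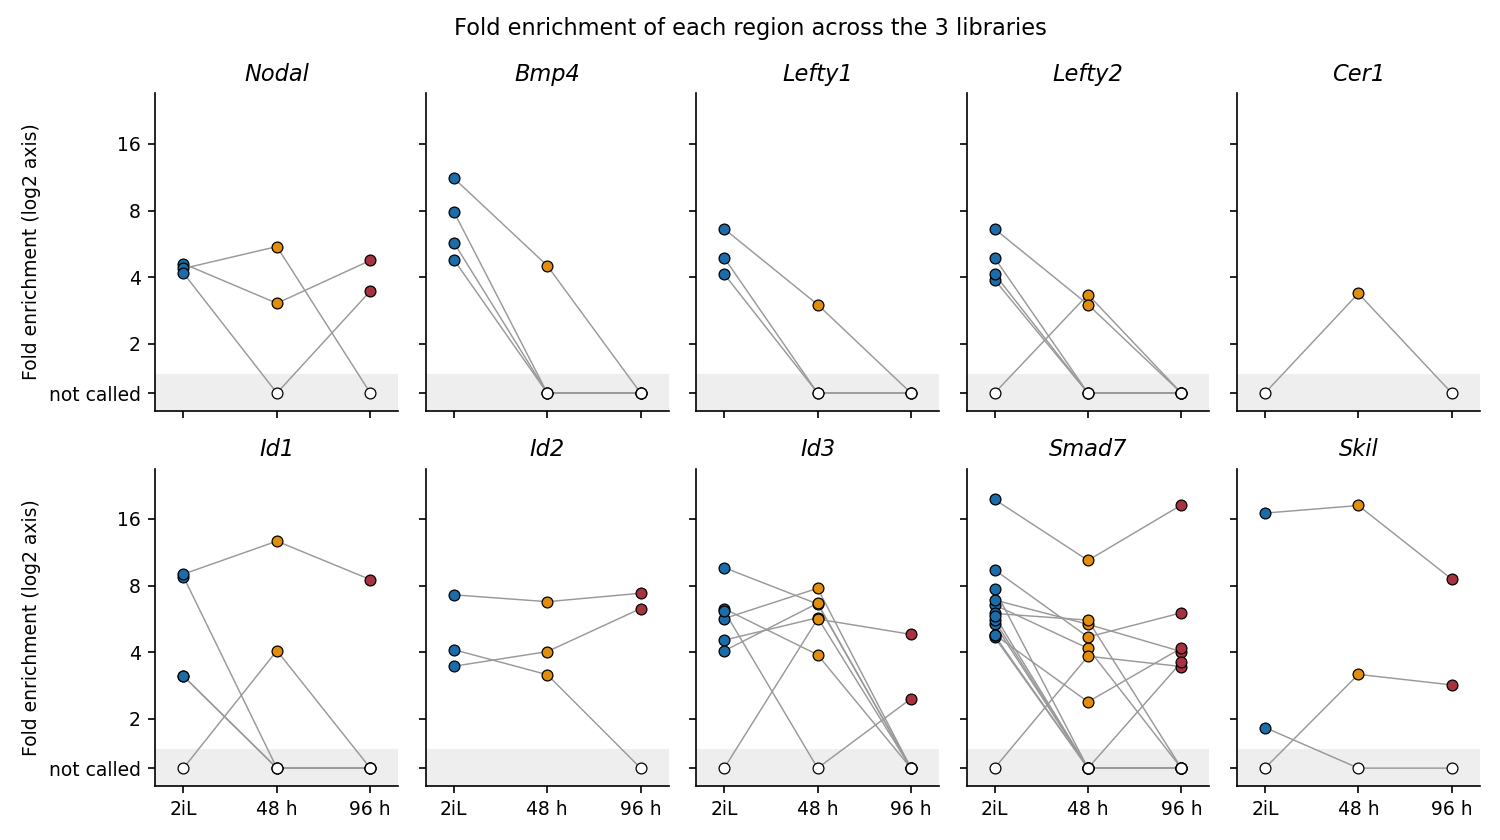
Fold enrichment (log2 axis) of each region near the 10 genes by library (2iL, 48 h, 96 h), with overlapping regions joined by lines and open circles in the grey band for regions that were not called. All regions near Bmp4, Lefty1, Lefty2 and Cer1 end in the grey band at 96 h. For Id1, Id2, Smad7 and Skil the line of highest 2iL fold stays called, at a 96 h fold of 7.39 to 18.5. Other lines of Id1 and Smad7, with 2iL folds of 8.77 and 7.71, drop to the band at 48 h and 96 h.

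The Id genes had 13 regions in 2iL, with 11 found 48 h and 5 found 96 h after withdrawal, and 9 and 4 of the 13 were called again at the later times, beside 50.7% and 35.0% of all 2iL regions. Of the 9, 5 belonged to Id3. Id1 (chromosome 2, 152736251 to 152737410) had 4, 2 and 1 regions, none of them within 10 kb of the gene. Both strong 2iL regions of its window lay 32.4 kb and 35.0 kb from Id1, inside Bcl2l1, a gene for an inhibitor of cell death. The farther one (chromosome 2, 152771632 to 152773121) had folds of 9.02 (7.41 to 10.9, 108 reads), 12.7 (10.6 to 15.0, 136 reads) and 8.52 (6.60 to 10.8, 64 reads) across the time course. Its summits in the 3 libraries lay within 12 bp of each other. The nearer one (152769418 to 152770388), with a 2iL fold of 8.77 (7.19 to 10.6, 105 reads), was called at neither later time, and the 2iL counting intervals of the pair overlap. Another 2 regions, inside the neighbouring gene H13 and both at a fold of 3.12, were called in 2iL only, and one 17.1 kb from Id1 (fold 4.07) at 48 h only.

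Id2 had 3, 3 and 2 regions. The gene lies on chromosome 12 (25093799 to 25096092, minus strand). The region nearest its start (25096514 to 25097223), 709 bases before it, had a fold of 4.11 in 2iL (2.84 to 5.79, 31 reads) and 3.17 at 48 h (2.31 to 4.24, 43 reads), and was not called at 96 h. It is the region that stops just short of the Id2 promoter printed above. A region 48.8 kb before the start (25144165 to 25145255) had folds of 7.27 (5.68 to 9.18), 6.77 (5.42 to 8.35) and 7.39 (5.57 to 9.62), and the 3 intervals overlap. Inside Kidins220, 33.6 kb past the end of Id2, a region (25059970 to 25061052) had folds of 3.46 (2.34 to 4.94), 4.03 (3.20 to 5.02) and 6.30 (4.69 to 8.29). Each pair of these intervals overlaps.

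Id3 (chromosome 4, 136143822 to 136145392, plus strand) had 6, 6 and 2 regions. Of the 6 in 2iL, 5 reappeared at 48 h, 1 at 96 h, and none at both. The region nearest the gene (chromosome 4, 136146400 to 136147860), 1.56 kb past its end, had a fold of 6.29 in 2iL (5.16 to 7.59, 106 reads) and 3.90 at 48 h (3.24 to 4.65, 121 reads). The reads were about as many, over a higher background at 48 h. The strongest in 2iL (136159590 to 136160504), 14.9 kb past the end, had folds of 9.64 (7.60 to 12.1, 74 reads) and 6.61 (5.54 to 7.82, 133 reads). The strongest at 48 h (136198653 to 136199687), 53.7 kb past the end and 2.99 kb from the cell cycle gene E2f2, had a fold of 7.78 (6.43 to 9.34), against 5.68 (4.34 to 7.32) in 2iL. None of these 3 was called at 96 h. A region 33.9 kb before the start (136109599 to 136110188) was called at 48 h (fold 5.65, 4.24 to 7.40) and at 96 h (4.82, 3.34 to 6.75) and not in 2iL, and Id3 was its nearest protein-coding gene. The remaining 96 h region, inside Asap3 and weak at 2.47 (1.88 to 3.18), overlapped a 2iL region of fold 6.15 that was not called at 48 h.

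Smad7, whose product blocks TGF-β and BMP receptors and is itself induced by SMADs, had 12, 7 and 6 regions. As many regions were found for 57 of 21887 protein-coding genes in 2iL (0.260%), for 2.26% at 48 h and for 1.41% at 96 h. The strongest (chromosome 18, 75464521 to 75466186), 69.8 kb from Smad7 and inside Ctif, had folds of 19.6 (16.9 to 22.7, 181 reads), 10.4 (8.94 to 12.0, 185 reads) and 18.5 (15.5 to 21.9, 134 reads) over the 3 libraries. It ranked among the highest 0.893%, 8.24% and 1.05% of the lists, and its highest summit lay at 75465708 in 2iL and at 75465036 and 75465031 later. Also inside Ctif, a region 53.9 kb from Smad7 (75449271 to 75450484) had folds of 9.43 (7.79 to 11.3), 4.69 (3.72 to 5.84) and 6.03 (4.44 to 8.03).

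At Smad7 itself, regions lay at both ends and inside the gene (75367365 to 75395935). A region over one end of the gene (75366471 to 75368224), with its highest summit 502 bp outside, had folds of 4.81 (3.73 to 6.10), 2.39 (1.81 to 3.10) and 4.18 (3.14 to 5.46) and was called in each library. A separate region inside the gene (75368631 to 75369555 at 48 h) was called at 48 h (3.84, 2.95 to 4.91) and at 96 h (3.45, 2.35 to 4.91) and not in 2iL. Another inside the gene (75380002 to 75380731, fold 5.57) was called in 2iL only. The region past the other end (75396941 to 75398033), at 1.60 kb in 2iL, had folds of 5.99 (4.63 to 7.62) in 2iL and 5.59 (4.33 to 7.12) at 48 h. The 12 regions of 2iL divided into 4 called at both later times, 2 at 48 h only, 1 at 96 h only and 5 at neither, the strongest of the 5 at a fold of 7.71.

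Skil, which encodes a SMAD corepressor, had 2 regions in each library. The stronger was called in all 3 libraries, and the weaker differed between 2iL and the later times. The gene spans 31095058 to 31122923 on chromosome 3. Nearest the gene, a region 4.67 kb away (chromosome 3, 31088772 to 31090875) was called at 48 h (3.18, 2.48 to 4.03, 68 reads) and at 96 h (2.85, 1.85 to 4.22, 23 reads) and not in 2iL. The strong region of this window (31000202 to 31001927) lay 93.6 kb from Skil, inside the kinase gene Prkci. Its folds were 17.0 (14.6 to 19.7, 173 reads) in 2iL, 18.4 (16.1 to 21.0, 226 reads) at 48 h and 8.56 (6.88 to 10.5, 87 reads) at 96 h. It ranked among the highest 1.87%, 0.857% and 13.5% of the lists. Beside it, a 2iL region of 225 bp with a fold of 1.83 (1.03 to 3.03) and 13 reads was the weakest of the 38.

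Many of these regions may be read as belonging to other genes. A member was the nearest protein-coding gene for 16 of the 38 regions in 2iL (42.1%), 13 of 26 at 48 h and 7 of 15 at 96 h (46.7%). The highest summit lay within 10 kb of a member for 9, 8 and 3 regions. The strongest regions of Smad7, Skil and Id1 each lay inside another gene. At the edge of the window, 2iL regions at 98.4 kb from Lefty1 (fold 4.89), 98.9 kb from Smad7 (5.86) and 99.0 kb from Lefty2 (3.89) fell inside the limit, and 2 at 102 and 104 kb from Smad7 (4.78 and 4.63) fell outside.

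Most of 46 other genes of the 2 pathways also had ESRRB regions nearby, and fewer had them later, as among all protein-coding genes. Regions were found within 100 kb for 40 of the 46 genes in 2iL (87.0%), for 36 at 48 h (78.3%) and for 29 at 96 h (63.0%). The shares of all protein-coding genes were 69.8%, 64.7% and 54.0%. Of the 123 regions of 2iL near them, 57 (46.3%) were present at 48 h and 42 (34.1%) at 96 h, beside the 50.7% and 35.0% of all 2iL regions given above. In the Nodal and activin branch 22, 21 and 19 of 26 genes had a region, and in the BMP branch 18, 15 and 10 of 20. The difference between the branches was not tested. Acvr1c and Acvr2a (activin receptors), Msx1 (a BMP target) and Grem1 (a BMP antagonist) were among those with no region in any library.

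The strongest 2iL regions of the pathway list differed in how they were called later. Inside Ski, the corepressor gene related to Skil, a region had folds of 26.0, 12.5 and 7.43. A region 37.4 kb from Tgif1, another corepressor gene, had folds of 18.0, 11.7 and 13.9, and all 5 of its 2iL regions were called at 48 h. The strongest regions of Acvr1, a BMP receptor gene (13.1, 9.48 and 9.16), of the ligand gene Tgfb1 (11.1, 7.43 and 8.19) and of Pcsk6, which encodes a convertase that cleaves Nodal (10.6, 7.70 and 6.53), were also called in each library. The strongest of Acvr1b, the main Nodal type I receptor gene (fold 15.6), of the BMP receptor gene Bmpr1a (12.6) and of Chrd, the gene of the BMP antagonist chordin (11.9), were called at neither later time. So were those of Inhba, which encodes the activin A subunit (10.3), the BMP signal transducer gene Smad9 (8.18) and Gata2, a transcription factor gene (7.48). The same held for Foxh1, a partner of SMADs in Nodal signalling (6.81), and Bambi, which encodes a decoy receptor (6.73). Only the 8 of highest fold are named, and it held for further genes of the list. Of all 2iL regions, whatever their fold, 45.6% were called at neither later time. The named regions were picked for high fold, so that share is not matched to them. Those of Acvr1b, Bmpr1a, Chrd and Inhba had folds above 8.71, the lower limit of the strongest class of 2iL regions. In that class 77.5% were called at 48 h and 62.2% at 96 h. Promoter windows were matched for 34 of the 46 genes, some of them with several windows. In 2iL a region overlapped those of 4 genes (Tdgf1, Tgfb1, Smurf1 and Bmpr1b). At 48 h the count was 2 (Tdgf1 and Bmpr1b) and at 96 h 1 (Tdgf1). Of all promoters, counted by window and not by gene, 5.19%, 3.61% and 2.72% were overlapped.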

How the data were processed

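ESRRB ChIP-seq peak lists from 3 libraries, 1 per condition, were analysed; 3 input libraries were not used here. Per the submitters' processing notes, bcl2fastq 2.20.0.422, BWA, SAMtools, Picard and MACS2 were used with mm10; no source used here gives their roles, filters, threshold or use of a control. The authors deposited, per summit, a score capped at 1000 (not used further), the fold enrichment as a ratio to local background, −log10 p-value and q-value, and the summit offset in base pairs. Regions took the fold of their highest summit.

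Reads at a summit were recovered from fold and p with a pseudocount of 1 and were whole within 0.05 for 100% of summits in each library; the code was tested on simulated data. Overlap meant at least 1 bp (checked with bedtools 2.31.1; Python 3.11.15, scipy 1.17.1). Intervals are exact (Clopper-Pearson for shares, Poisson for reads) and cover counting error only. Genes came from RefSeq (GRCm38.p6); strand was known only for genes in the promoter table. Named regions were each gene's strongest in each library, its nearest, and those in the strongest 20% by fold. Of the pathway list, genes with no region, the 8 of highest 2iL fold and up to 8 whose strongest 2iL region was called at neither later time were named; any further genes or regions were picked with their values in view. A gene that this rule names is not reported here. Members, lists and tests were chosen with earlier results of these data known. As alternatives, lists were limited to a q of at most 1e-05 or cut to one length, and the window was changed to widths of 50 and 20 kb. Distance from the highest summit alone, the nearest gene and stricter overlaps were also tried.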

Additional observations from a re-analysis of the deposited data

How the results depend on the processing

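Shares of 2iL regions called later moved under some alternatives, and counts of regions followed the window and the length of the lists. With lists of equal length (7018 regions by fold), genes with a region numbered 8, 7 and 6 across the 3 libraries. The region counts were then 17, 14 and 15, in place of 38, 26 and 15. At equal length the region counts thus did not fall from 48 h to 96 h, and they differed less between libraries. With a window of 50 kb they were 24 in 2iL and 9 at 96 h, and with 20 kb 12, 12 and 4, with 3 genes having a region at 96 h. When a member had to be the nearest protein-coding gene, 16, 13 and 7 regions were left. The share of 2iL regions called was 75.0% at 48 h and 16.7% at 96 h with 20 kb. Under the other alternatives run the shares lay between 46.9% and 62.5% at 48 h and between 23.7% and 47.1% at 96 h. The 47.1% came from lists of equal length, where all 2iL regions gave 47.8%. Leaving out the regions of Id3 (46.9% and 34.4%) or Smad7 (53.8% and 26.9%) was added after seeing the data. No paired analysis was possible because each condition had 1 library. With 1 library each, differences in depth (lowest background 5.04, 8.09 and 5.84 reads) and in binding cannot be told apart.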
